A study of Mus musculus with 6 samples.

Results

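The glycerolipid and triglyceride synthesis enzymes described here are the 10 genes Mogat1, Mogat2, Gpam, Gpat4, Agpat2, Lpin1, Lpin2, Lpin3, Dgat1 and Dgat2, chosen by name as the enzymes of the glycerol-phosphate and monoacylglycerol routes to triglyceride. The choice was made with earlier results of these data known. These enzymes are 10 of 55487 genes listed in the count tables, and 9 of them were among the 13498 genes with enough reads to be tested. The livers came from 6 male mice aged 8 weeks and fed standard chow. The SCADD group was 3 mice of the substrain BALB_cBYJ, which is deficient in short-chain acyl-CoA dehydrogenase, a mitochondrial enzyme that breaks down short-chain fatty acids. The WT group was 3 mice of the substrain BALB_cJ. Genotype and substrain coincided in all 6 mice, so the enzyme deficiency and other differences between the substrains cannot be told apart. The series design text calls the mice of a group biological replicates, and the sources used here do not say whether mice of the groups were matched by litter, cage or day. Messenger RNA selected by its poly(A) tail was sequenced from pieces of frozen liver, and levels are given as CPM (read counts relative to library size, after TMM scaling between libraries) unless TPM is named.

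Triglyceride is the storage form of fatty acids, and liver makes it by adding fatty acyl chains to a glycerol backbone. In the glycerol-phosphate route, glycerol-phosphate acyltransferases (Gpam in mitochondria, Gpat4 in the endoplasmic reticulum) add the first chain, Agpat2 adds the next, lipins remove the phosphate to give diacylglycerol, and the diacylglycerol acyltransferases Dgat1 and Dgat2 add the last. The monoacylglycerol route makes diacylglycerol directly by the enzymes Mogat1 and Mogat2 and is best known in the intestine, where Mogat2 serves fat absorption, while Mogat1 is known in mice as a gene that is low in normal liver and raised in fatty liver.

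Upstream sequences were looked up in RefSeq (build GRCm38.p6), and 6 of the 10 genes matched, with 10 windows of 250 bases before a transcript start. Mogat2, Gpat4, Dgat1 and Dgat2 are named only. The windows of Mogat1, Gpam and Lpin2 are shown because these transcripts were higher in SCADD livers, and that of Lpin1 because its level split the WT livers. Where RefSeq gives several starts, the most upstream is shown. Each window is written 5′ to 3′ on the strand of the gene, and capitals mark the motif matches described after them. The Mogat1 window is chr1:78510810-78511059 on the plus strand, the Gpam window chr19:55127239-55127488 on the minus strand, the Lpin2 window chr17:71183282-71183531 on the plus strand, and the Lpin1 window chr12:16610967-16611216 on the minus strand.
Mogat1: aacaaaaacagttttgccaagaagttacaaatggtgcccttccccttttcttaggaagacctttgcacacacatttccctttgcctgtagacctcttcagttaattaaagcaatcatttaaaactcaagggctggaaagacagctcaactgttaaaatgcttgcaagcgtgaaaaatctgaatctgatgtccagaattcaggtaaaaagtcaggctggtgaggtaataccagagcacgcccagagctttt
Gpam: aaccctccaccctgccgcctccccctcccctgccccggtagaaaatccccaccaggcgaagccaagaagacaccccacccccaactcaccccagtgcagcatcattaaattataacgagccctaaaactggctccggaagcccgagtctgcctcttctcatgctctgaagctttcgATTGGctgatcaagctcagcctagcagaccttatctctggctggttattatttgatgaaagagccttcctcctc
Lpin2: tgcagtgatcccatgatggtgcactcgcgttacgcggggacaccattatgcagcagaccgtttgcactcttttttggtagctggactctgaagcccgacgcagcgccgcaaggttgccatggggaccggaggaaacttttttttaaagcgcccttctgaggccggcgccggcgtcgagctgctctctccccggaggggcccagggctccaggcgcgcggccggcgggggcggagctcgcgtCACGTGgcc
Lpin1: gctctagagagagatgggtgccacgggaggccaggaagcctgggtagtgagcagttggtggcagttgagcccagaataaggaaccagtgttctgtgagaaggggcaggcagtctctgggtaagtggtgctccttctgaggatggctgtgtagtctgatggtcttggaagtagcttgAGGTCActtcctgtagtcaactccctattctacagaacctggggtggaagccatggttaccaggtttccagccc

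Letter matches were sought on both strands in all 32851 RefSeq windows cut to the same length. The nuclear receptor half-site AGGTCA, the letters that nuclear receptors such as PPARs read, was found in 14.0% of all windows and in 2 of the 10 windows of these genes. These were the Lpin1 window, from base 177 counted from its 5′ end, and the other Gpam window, from base 55. The E-box CACGTG, read by factors such as SREBP and the clock proteins, was in 6.02% of all windows and in 1 of these, Lpin2 from base 242. The CCAAT box was in 33.8% of all windows and in 2 of these, among them the Gpam window shown, where it lies on the opposite strand from base 177 and so reads ATTGG. The longer motifs searched were a direct repeat of AGGTCA with 1 base between the copies, which overlaps with the half-site by design, in 0.0335% of all windows, the glucocorticoid response element, AGAACA and TGTTCT with 3 bases between them, in 0.00913%, and the D-box TTATGTAA in 0.819%. Those longer letters were not in the 10 windows of these genes, and the Mogat1 window held none of the motifs searched. A match describes letters and does not show that a factor binds.

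Reads counted in genes totalled 16948986 to 23912744 in SCADD libraries and 23991104 to 27148756 in WT libraries. Unmapped reads made up 25.1% to 36.6% of reads in SCADD libraries, against 13.6% to 16.4% in WT libraries, so depth and mapping moved with the groups, and their part in the results was not tested. Acads, the gene of the deficient enzyme, had 99.3, 104 and 96.96 CPM in SCADD livers, against 185, 166 and 196 CPM in WT livers (log2 fold change -0.86, edgeR adjusted p = 0.00407). In all, 947 of 13498 tested genes (7.02%) passed the test at an adjusted p under 0.05, of which 569 were higher (4.22%) and 378 lower (2.80%) in SCADD livers. Upper-quartile scaling gave 470 higher and 482 lower. In whole tissue, fewer cells of a type and less RNA per cell cannot be told apart.

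Of the 9 tested enzymes, 4 rose in SCADD livers, and the background was 4.22% of all tested genes. They were Mogat1, Dgat2, Lpin2 and Gpam, so a transcript rose at the acylation of monoacylglycerol, at the entry of the glycerol-phosphate route, at the phosphatase step and at the last acylation. By the same edgeR test 0 fell, while Lpin3 was lower at an unadjusted p under 0.05, and DESeq2 and limma-voom also called 4 higher and 0 lower. The median log2 fold change over the 9 was 0.55, against -0.00078 over all tested genes. As the enzymes were chosen with earlier results of these data known, contrasts with all tested genes describe the set and do not test it. In 4 of the 9, every SCADD library was above every WT library, as in 14.9% of all tested genes, and Lpin3 alone had every SCADD library below every WT library, as in 13.1%.

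**Figure D1:**
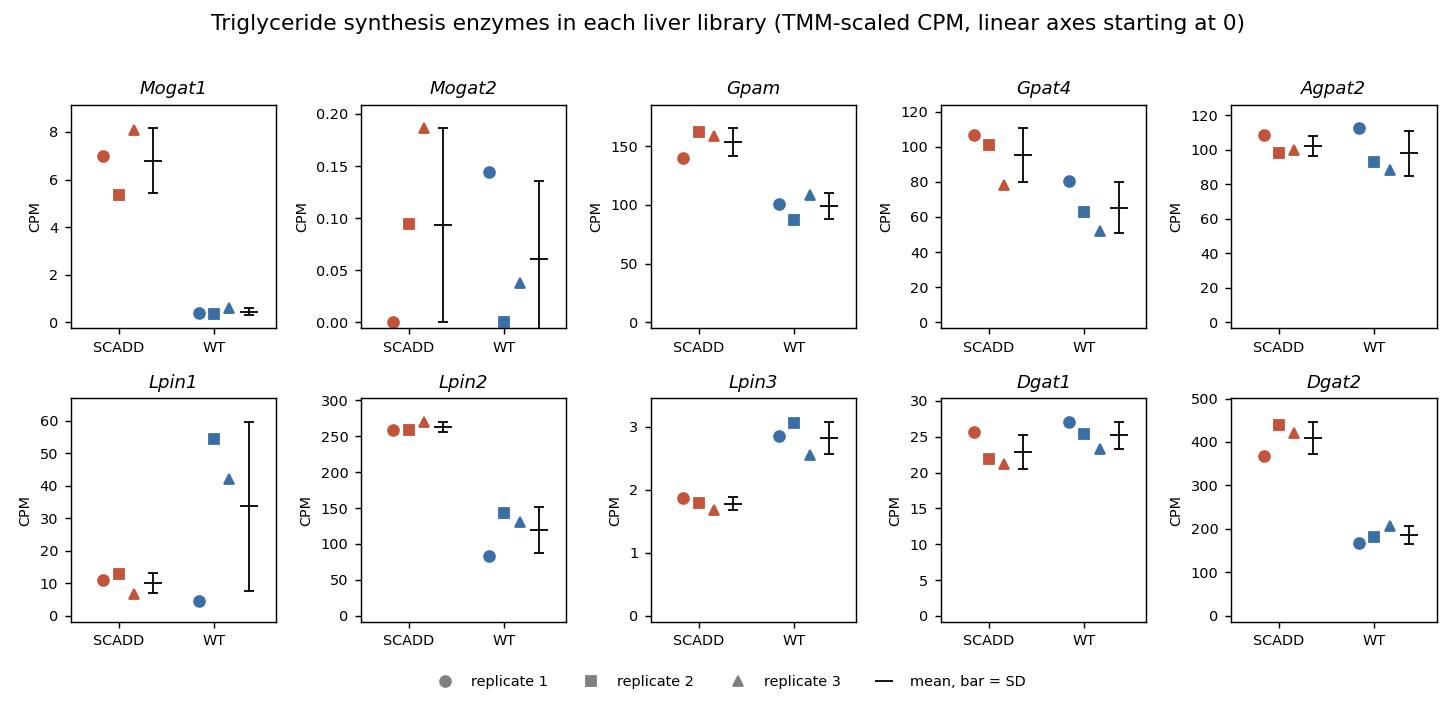
Level of each of the 10 enzymes in CPM (linear axes starting at 0) in SCADD livers on the left and WT livers on the right. Each symbol is 1 library, and the bar is the mean with its SD (n = 3 each). The SCADD points of Mogat1, Gpam, Lpin2 and Dgat2 lie above all WT points, those of Lpin3 lie below, and WT replicate 1 of Lpin1 lies at 4.63 CPM, far under the other WT points.

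Mogat1, which joins a fatty acyl chain to monoacylglycerol (ENSMUSG00000012187, chr1:78510991-78538173, plus strand, GRCm38), had the largest fold change of the 9 enzymes. It had 171, 113 and 130 reads in SCADD replicates 1, 2 and 3, against 11, 8 and 16 reads in WT replicates 1, 2 and 3. In CPM this was 6.98, 5.33 and 8.06 in SCADD livers, against 0.398, 0.350 and 0.601 in WT livers. The transcript had few reads in every WT liver and over 100 in every SCADD liver, and the groups lay far apart. Means were 6.79 ± 1.38 CPM in SCADD livers and 0.449 ± 0.133 CPM in WT livers (SD, n = 3 each). The fitted difference was 14.8-fold, or 3.89 ± 0.28 on the log2 scale (SE), with an edgeR adjusted p of 3.81e-05. Its p was the 13th smallest of all tested genes and its log2 fold change the 40th highest. It entered the test through the SCADD libraries. Under the 16 other settings its log2 fold change ran from 3.75 to 4.15, and the adjusted p reached at most 0.000631.

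Mogat2, the intestinal form of the enzyme (ENSMUSG00000052396, chr7:99219084-99238619, minus strand), was at the limit of detection. It had 0, 2 and 3 reads in SCADD livers, against 4, 0 and 1 reads in WT livers, and was not tested. The pooled counts of 5 and 5 reads gave a ratio of 1.25 after library size, with an exact 95% interval of 0.287 to 5.42 that covers counting error only, so no difference was detectable at this depth. Mogat2 is the neighbour of Dgat2 on the chromosome, with 36364 bases and 0 annotated genes between them, and Dgat2 was among the enzymes that rose.

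Gpam, the mitochondrial glycerol-phosphate acyltransferase (ENSMUSG00000024978, chr19:55067268-55127238, minus strand), rose by a smaller amount. Its levels were 140, 162 and 159 CPM in SCADD livers, against 101, 86.9 and 109 CPM in WT livers. Each SCADD liver was above each WT liver, with means of 154 ± 12.0 CPM in SCADD livers and 98.9 ± 11.1 CPM in WT livers (SD, n = 3 each). The fitted difference was 1.55-fold, or 0.63 ± 0.14 on the log2 scale (SE), with an edgeR adjusted p of 0.0240. The call did not hold in 4 of the fits that left out a library, with an adjusted p of 0.0671 without WT replicate 1, 0.132 without WT replicate 2, 0.0588 without WT replicate 3 and 0.0595 without SCADD replicate 1.

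Gpat4, which carries out the same step in the endoplasmic reticulum (ENSMUSG00000031545, chr8:23171265-23208346, minus strand), did not pass the test. It had 107, 101 and 78.0 CPM in SCADD livers, against 80.6, 63.0 and 52.0 CPM in WT livers. SCADD replicate 3 lay under WT replicate 1, so the groups overlapped. The log2 fold change was 0.55 ± 0.18 (SE, edgeR adjusted p = 0.102), close in size to that of Gpam. It passed without SCADD replicate 3 (adjusted p = 0.0276) and without a filter on low counts (0.0143). Within the pair, Gpam took 49.7%, 54.8% and 61.4% of the summed TPM in SCADD livers, against 46.1%, 50.2% and 64.3% in WT livers. Those shares overlapped, with means of 55.3% ± 5.83 in SCADD livers and 53.5% ± 9.56 in WT livers (SD, n = 3 each; exact two-sided permutation test, p = 0.8).

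Agpat2, the acyltransferase that turns lysophosphatidate into phosphatidate (ENSMUSG00000026922, chr2:26593057-26604417, minus strand), did not pass the test. It had 109, 97.8 and 99.7 CPM in SCADD livers, against 113, 93.1 and 88.0 CPM in WT livers. The SCADD values lay inside the range of the WT values, and the log2 fold change was 0.06 ± 0.14 (SE, edgeR adjusted p = 0.847). Its sign turned to -0.0114 without WT replicate 3 and to -0.00271 without SCADD replicate 1.

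Of the lipins, which take the phosphate off phosphatidate, Lpin2 rose and the others did not pass. Lpin2, the main lipin transcript of these livers (ENSMUSG00000024052, chr17:71182560-71249817, plus strand), had 258, 258 and 270 CPM in SCADD livers, against 82.9, 143 and 131 CPM in WT livers. The SCADD livers were close to each other and all above the WT livers, of which WT replicate 1 was the lowest. Means were 262 ± 6.94 CPM in SCADD livers and 119 ± 32.0 CPM in WT livers (SD, n = 3 each). The fitted difference was 2.20-fold, or 1.14 ± 0.20 on the log2 scale (SE), with an edgeR adjusted p of 0.00734. Under the 16 other settings the log2 fold change ran from 0.92 to 1.29 with adjusted p up to 0.0260, and it passed in each.

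Lpin1, the lipin known in liver as a fasting- and glucocorticoid-responsive enzyme that also acts as a coactivator in the nucleus (ENSMUSG00000020593, chr12:16535669-16610966, minus strand), split the WT livers. It had 270, 272 and 111 reads in SCADD livers, against 128, 1245 and 1125 reads in WT livers. In CPM this was 11.0, 12.8 and 6.89 in SCADD livers, against 4.63, 54.4 and 42.2 in WT livers. WT replicates 2 and 3 were far above all SCADD livers, while WT replicate 1 was below all of them. The log2 fold change was -1.71 (SE 0.84) and did not pass (edgeR adjusted p = 0.307). Without WT replicate 1 it was -2.24 with an adjusted p of 0.000789, so this library decided the call.

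WT replicate 1 also stood apart in a gene looked at after its values were seen. Fkbp5, a glucocorticoid-induced chaperone, had 59.5, 56.4 and 32.1 CPM in SCADD livers, against 11.9, 71.1 and 64.6 CPM in WT livers. As with Lpin1, WT replicate 1 was the lowest of the 6 libraries. Over the 14 fasting- and glucocorticoid-responsive genes listed, WT replicate 1 was the lowest library for 4 (Tat, Fgf21, Fkbp5 and Per1) and the highest for 2 (G6pc and Sgk1). That count did not set it apart, since SCADD replicate 2 was also the lowest for 4. WT replicate 2 was the highest for 6 and SCADD replicate 1 for 5. Summed CPM of 6 adipocyte markers was 1.10, 0.849 and 0.931 in SCADD livers, against 8.39, 0.350 and 0.338 in WT livers, with WT replicate 1 the highest. The part of these differences in the Lpin1 values was not tested.

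Lpin3, a lipin of low abundance here (ENSMUSG00000027412, chr2:160880670-160906002, plus strand), had 1.88, 1.79 and 1.67 CPM in SCADD livers, against 2.86, 3.06 and 2.55 CPM in WT livers. Every SCADD liver was below every WT liver, with means of 1.78 ± 0.101 CPM in SCADD livers and 2.82 ± 0.256 CPM in WT livers (SD, n = 3 each). The log2 fold change of -0.66 (SE 0.21) missed the threshold (edgeR adjusted p = 0.0899), and did so under all 16 other settings.

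The make-up of the lipin pool was compared in TPM, which accounts for transcript length. Lpin2 made up 95%, 95.8% and 97.2% of the summed lipin TPM in SCADD livers, against 92.3%, 74.7% and 77.8% in WT livers. The groups did not overlap, with means of 96.0% ± 1.10 in SCADD livers and 81.6% ± 9.40 in WT livers (SD, n = 3 each). By an exact permutation test (two-sided) p was 0.1, which is as low as 3 against 3 libraries can go. Lpin1 made up 3.61%, 3.42% and 1.97% in SCADD livers, against 3.62%, 22.3% and 20.1% in WT livers, so the share in WT replicate 1 was near those in SCADD livers. The summed lipin TPM was 57.4, 60.7 and 43.8 in SCADD livers, against 19.6, 38.2 and 31.1 in WT livers.

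Dgat2, the diacylglycerol acyltransferase best known for using newly made fatty acids (ENSMUSG00000030747, chr7:99153658-99182719, minus strand), rose in SCADD livers. It had 368, 440 and 421 CPM in SCADD livers, against 168, 181 and 208 CPM in WT livers. The lowest SCADD liver was well above the highest WT liver, and the means were 410 ± 37.1 CPM in SCADD livers and 186 ± 20.1 CPM in WT livers (SD, n = 3 each). The fitted difference was 2.21-fold, or 1.14 ± 0.15 on the log2 scale (SE), with an edgeR adjusted p of 0.00207. The log2 value ran from 1.06 to 1.23 under the 16 other settings with adjusted p up to 0.0210.

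Dgat1, the other diacylglycerol acyltransferase, which is unrelated to Dgat2 in sequence (ENSMUSG00000022555, chr15:76502015-76511953, minus strand), did not pass. It had 25.6, 21.9 and 21.2 CPM in SCADD livers, against 27.0, 25.4 and 23.3 CPM in WT livers. The groups overlapped, and the log2 fold change was -0.14 ± 0.13 (SE, edgeR adjusted p = 0.591). Dgat2 made up 90.1%, 91.9% and 92.3% of the summed TPM of the pair in SCADD livers, against 80.5%, 82.7% and 85.5% in WT livers. Those shares did not overlap, with means of 91.4% ± 1.14 in SCADD livers and 82.9% ± 2.54 in WT livers (SD, n = 3 each; exact two-sided permutation test, p = 0.1, the smallest possible).

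**Figure D2:**
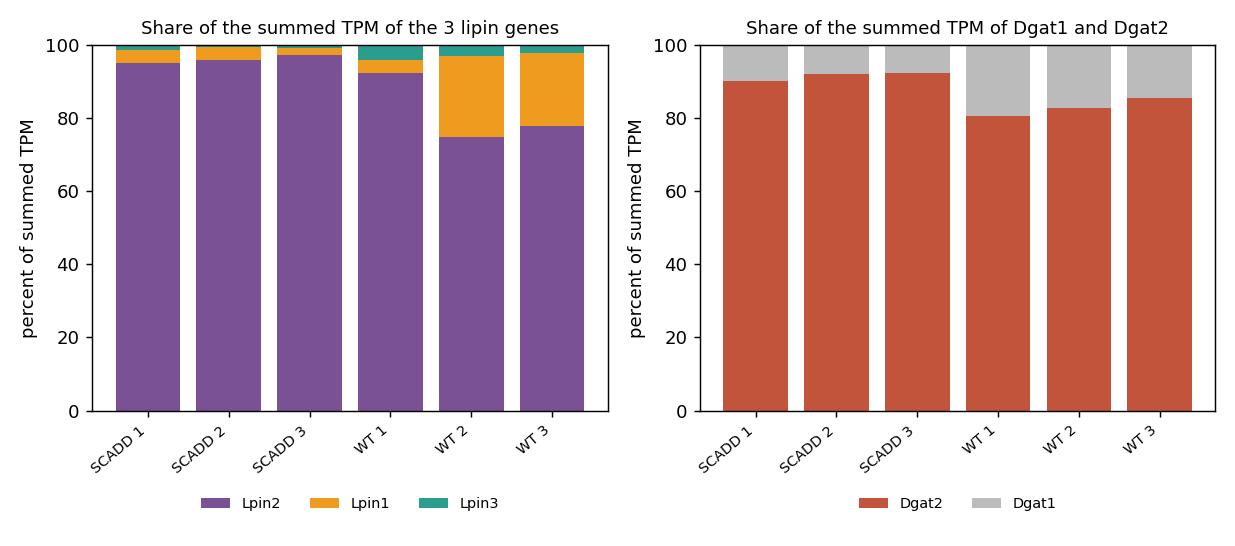
Share of the summed TPM taken by each lipin (left) and by Dgat1 and Dgat2 (right), in percent, with 1 bar for each library, SCADD livers first and WT livers after them. Lpin2 exceeds 95% or equals it in all SCADD livers, and WT replicate 1 at 92.3% lies nearer to them than WT replicates 2 and 3. Dgat2 exceeds 90% in all SCADD livers and stays at or under 85.5% in all WT livers.

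Ordered by mean TPM in SCADD livers, the enzymes ran from Dgat2 at 161 through Agpat2 at 81.1, Lpin2 at 51.7, Gpam at 26.5, Gpat4 at 22.0, Dgat1 at 15.2, Mogat1 at 6.17, Lpin1 at 1.67 and Lpin3 at 0.55 to Mogat2 at 0.0567 TPM. Gpat4 overlapped with its neighbours Gpam and Dgat1, and the other neighbours in this order did not overlap. In WT livers the order by mean TPM was Agpat2 at 79.9, Dgat2 at 77.9, Lpin2 at 23.6, Gpam at 17.1, Dgat1 at 16.0, Gpat4 at 15.4, Lpin1 at 5.16, Lpin3 at 0.883, Mogat1 at 0.673 and Mogat2 at 0.04 TPM. In that group Agpat2 and Dgat2 overlapped, as did each neighbouring pair from Lpin2 to Gpat4 and from Lpin1 to Mogat1. Dgat2 thus stood alone at the top in SCADD livers, and Mogat1 lay above Lpin1 there and below it in WT livers by mean. Summed TPM of all 10 was 386, 423 and 290 in SCADD livers, against 252, 234 and 224 in WT livers.

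RSEM also reports for each gene the mean length of its transcripts weighted by their abundance as estimated in each library. It follows the estimated mix of annotated transcripts, and with few or no reads it is not informative, as for Mogat2. For Dgat1 this length was 1416, 1380 and 1411 bases in SCADD livers, against 1546, 1488 and 1530 bases in WT livers. All SCADD livers were shorter, at 1402 ± 19.6 bases in SCADD livers and 1521 ± 30.2 bases in WT livers (SD, n = 3 each; exact two-sided permutation test, p = 0.1, the smallest possible). In GENCODE M21, a mouse annotation on GRCm38, Dgat1 has 12 transcripts of 564 to 1888 bases, of which 1 is protein coding and 6 retain an intron.

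Gpam had a weighted length of 5581, 5278 and 5604 bases in SCADD livers, against 5659, 5798 and 5821 bases in WT livers. Here too all SCADD livers were shorter, with means of 5488 ± 182 bases in SCADD livers and 5760 ± 87.5 bases in WT livers (SD, n = 3 each; exact permutation test, p = 0.1). The other 8 enzymes overlapped between groups, Lpin2 among them at 4709, 4719 and 4777 bases in SCADD livers, against 4639, 4781 and 5050 bases in WT livers. Among 11227 tested genes with at least 2 annotated transcripts, the SCADD lengths lay below all WT lengths in 5.39% and above them in 5.58%. The lengths of Mogat1 in WT livers, 503 to 1178 bases, rest on 8 to 16 reads, and so do its TPM values there.

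**Figure D3:**
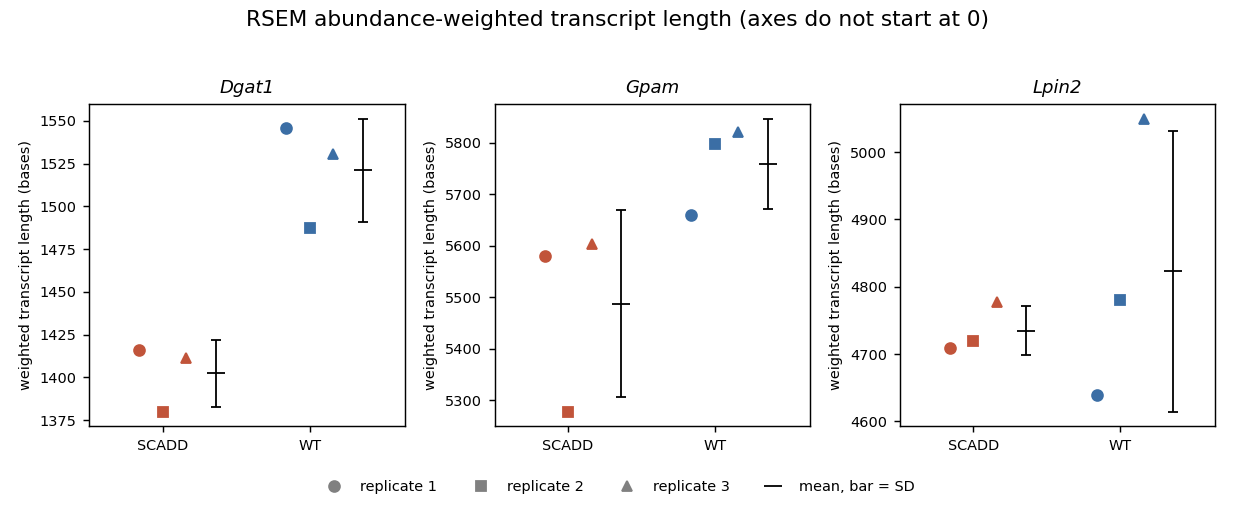
Abundance-weighted transcript length in bases, estimated by RSEM, for Dgat1, Gpam and Lpin2 in SCADD livers on the left and WT livers on the right (axes do not start at 0). Each symbol is 1 library and the bar is the mean with its SD (n = 3 each). The SCADD points lie below all WT points for Dgat1 and Gpam and overlap with them for Lpin2.

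Further enzymes at the same steps were read from lists, and over all tested genes 4.22% were higher and 2.80% lower in SCADD livers. Among 7 other glycerol-phosphate and lysophosphatidate acyltransferases, 2 rose, and the list median was 0.18 on the log2 scale. Gpat3, a glycerol-phosphate acyltransferase of the endoplasmic reticulum best known in adipose tissue, had 17.1 ± 1.83 CPM in SCADD livers and 6.63 ± 0.747 CPM in WT livers (SD, n = 3 each), which is 1.36 ± 0.15 higher on the log2 scale (SE, edgeR adjusted p = 0.000581). That is a larger log2 fold change than those of Gpam and Gpat4, at a lower CPM, although the differences between these genes were not tested. Lclat1, an acyltransferase known for remodelling cardiolipin and phosphatidylinositol, had 30.3 ± 1.16 CPM in SCADD livers and 17.2 ± 0.791 CPM in WT livers (0.82 on the log2 scale, SE 0.12, edgeR adjusted p = 0.00285). Of 3 lipid phosphate phosphatases, which remove phosphate at the cell surface, Plpp2 rose (1.02 on the log2 scale, SE 0.18, edgeR adjusted p = 0.00744).

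Glycerol-3-phosphate is the starting material of the route. Of the 5 tested genes of its supply 1 rose, and 4.22% of all tested genes did. Gpd2, the mitochondrial glycerol-3-phosphate dehydrogenase, had 26.7, 24.6 and 27.7 CPM in SCADD livers, against 20.3, 15.0 and 16.7 CPM in WT livers (0.60 on the log2 scale, SE 0.14, edgeR adjusted p = 0.0312). It did not pass without WT replicate 2 (adjusted p = 0.138), WT replicate 3 (0.116) or SCADD replicate 1 (0.115).

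Diacylglycerol can also be turned back to phosphatidate by diacylglycerol kinases, of which 6 were tested and 2 rose, Dgka (log2 fold change 0.84, edgeR adjusted p = 0.0366) and Dgkd (0.53, adjusted p = 0.0378). Over all tested genes 4.22% rose. All 6 kinases had a log2 fold change above 0, with a median of 0.38. The count of 2 was 0 when WT replicate 1, 2 or 3 or SCADD replicate 1 was left out, and 1 without SCADD replicate 2 or with upper-quartile scaling or RSEM expected counts.

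Diacylglycerol and phosphatidate also feed phospholipid synthesis. Of 18 tested genes of this branch 2 rose and 1 fell, with a median log2 fold change of 0.25. Over all tested genes 4.22% rose and 2.80% fell. Etnk1, an ethanolamine kinase, had 50.4 ± 2.36 CPM in SCADD livers and 26.2 ± 2.05 CPM in WT livers (0.94 on the log2 scale, SE 0.12, edgeR adjusted p = 0.00165). Chpt1, which uses diacylglycerol to make phosphatidylcholine, had 341, 286 and 441 CPM in SCADD livers, against 175, 150 and 184 CPM in WT livers (1.07 ± 0.18 on the log2 scale, SE). Its edgeR adjusted p was 0.00691, and 0.0504 without WT replicate 2. Etnk2, the ethanolamine kinase known as the main form in liver, fell, with 76.4, 102 and 104 CPM in SCADD livers, against 126, 234 and 299 CPM in WT livers (-1.22 on the log2 scale, SE 0.28, edgeR adjusted p = 0.0340). The 2 ethanolamine kinases thus changed in opposite directions, but the call of Etnk2 was lost, with adjusted p of 0.0885 to 0.151, without WT replicate 2, WT replicate 3 or any SCADD replicate. The count of higher genes in this branch was 1 without WT replicate 2, 5 without SCADD replicate 3, and 4 with DESeq2 or without a filter.

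**Figure D4:**
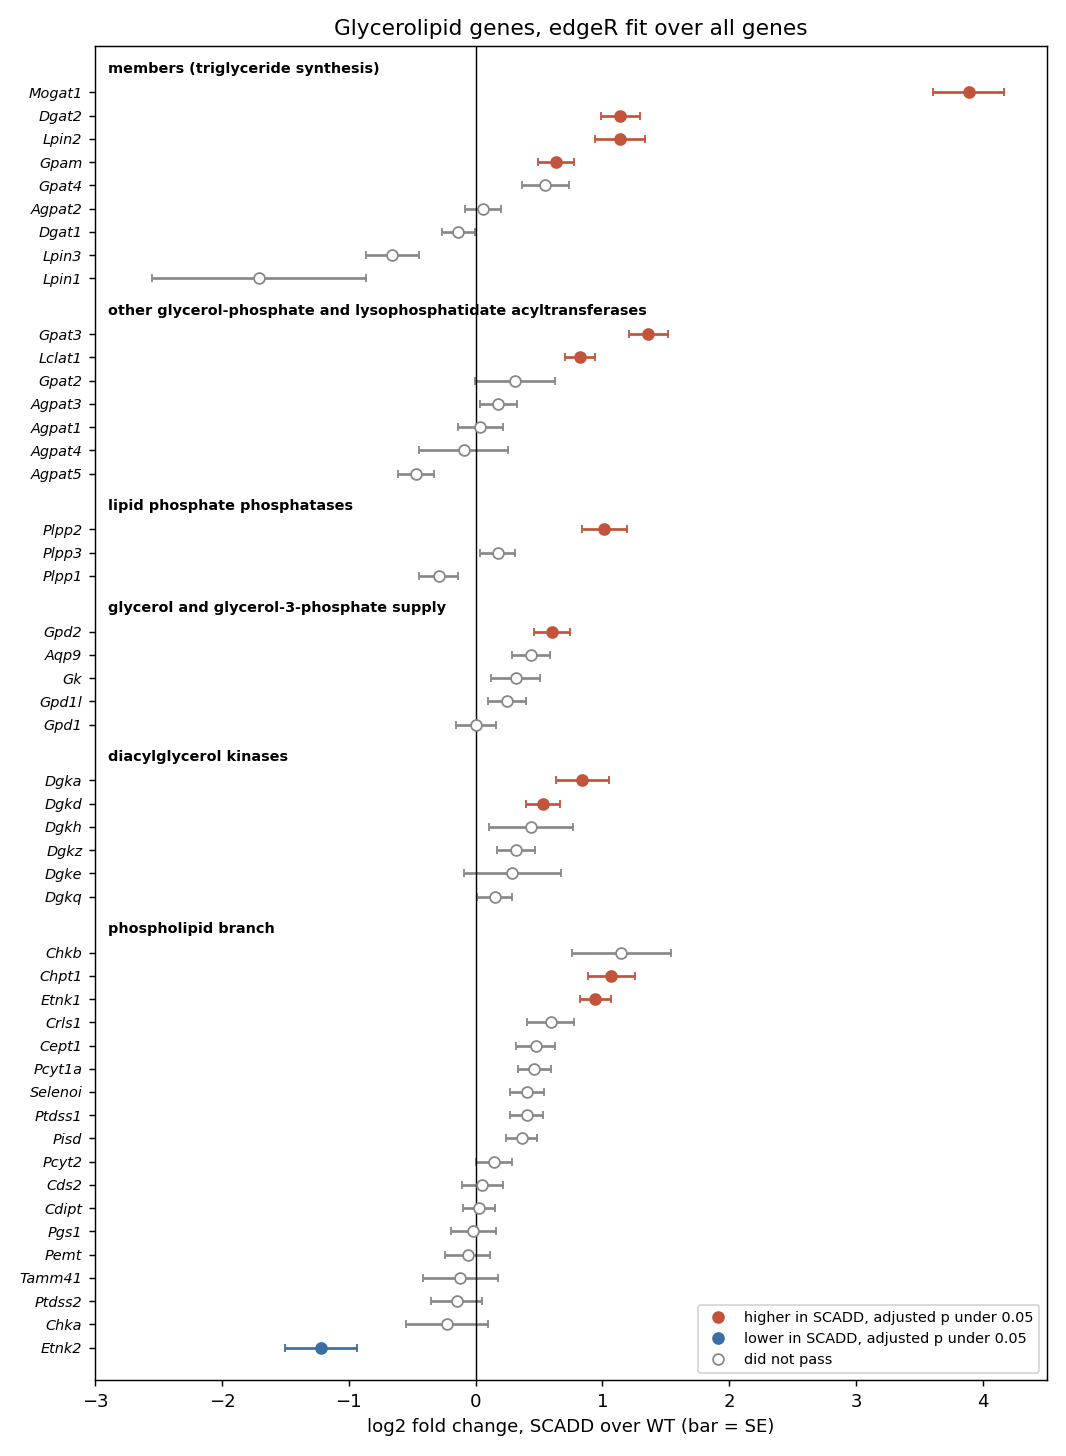
Log2 fold change of SCADD over WT livers with its SE for the 9 tested enzymes (top) and for the tested genes of 5 related lists below them. Filled points passed the test at an adjusted p under 0.05, red for higher and blue for lower in SCADD livers, and open points did not pass. Mogat1 at 3.89 lies furthest to the right, and Lpin1 at -1.71 has the widest error.

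Among 9 transcription factors of lipid metabolism, Pparg alone passed, and it was higher, as were 4.22% of all tested genes. Pparg, a nuclear receptor of fat storage that is known to drive Mogat1 in mouse liver, had 10.4, 15.8 and 12.5 CPM in SCADD livers, against 4.52, 4.94 and 2.93 CPM in WT livers. Every SCADD liver was above every WT liver, and the difference was 1.64 ± 0.23 on the log2 scale (SE, edgeR adjusted p = 0.00227). It passed under all 16 other settings, and any link between its level and that of Mogat1 was not tested. The remaining 8 did not pass. Srebf1, the gene of a master regulator of fatty acid synthesis, had 10.2, 22.4 and 9.68 CPM in SCADD livers, against 17.4, 9.97 and 16.5 CPM in WT livers, and its values overlapped. The count of 1 became 2 when no filter was used or SCADD replicate 3 was left out.

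Against 2.80% of all tested genes that fell, 1 of the 4 partners of the lipins fell, Ppargc1a. It encodes the coactivator PGC-1α, to which Lpin1 binds, and had 4.65, 6.18 and 3.60 CPM in SCADD livers, against 11.4, 24.7 and 15.3 CPM in WT livers. The groups did not overlap, and the difference was -1.82 on the log2 scale with SE 0.30 (edgeR adjusted p = 0.00744, and 0.0516 without SCADD replicate 3). Of 14 fasting- and glucocorticoid-responsive genes 0 passed by the main edgeR test, against 7.02% of all tested genes. Among the 14, 2 higher and 1 lower had an unadjusted p under 0.05. DESeq2 called 2 higher and 1 lower, and limma-voom called 1 higher and 0 lower. With edgeR, 1 was called higher and 2 lower without a filter, and 1 higher without robust estimation. Pdk4, a kinase induced by fasting, had 156, 29.6 and 124 CPM in SCADD livers, against 21.7, 18.1 and 10.5 CPM in WT livers, a log2 fold change of 2.61 that did not pass (SE 0.66, edgeR adjusted p = 0.0788). SCADD replicate 2 lay far below the other SCADD livers, and without it the adjusted p was 0.00112. With all libraries Pdk4 passed by DESeq2 (adjusted p = 0.00465), by limma-voom (0.0275) and by edgeR without robust estimation (0.0146). Tsc22d3, of the same list, went the other way, with every SCADD liver below every WT liver. Its log2 fold change was -0.78 (SE 0.25, edgeR adjusted p = 0.0923, DESeq2 adjusted p = 0.0249). Over the list 8 log2 fold changes were above 0 and 6 below.

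Of 15 tested clock genes 1 passed, Hlf, and 7.02% of all tested genes passed. Hlf, a transcription factor of the clock output, had 26.5, 36.1 and 27.1 CPM in SCADD livers, against 14.7, 16.6 and 21.4 CPM in WT livers (0.77 on the log2 scale, SE 0.18, edgeR adjusted p = 0.0269). It did not pass without WT replicate 1 (adjusted p = 0.0939), WT replicate 2 (0.124) or SCADD replicate 2 (0.0576). The time of day at which livers were taken is not given in the sources used here.

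Markers of other cell types and of hepatocytes were read in the same libraries. The 7 hepatocyte markers summed to 92037 to 133274 CPM in SCADD livers, against 100482 to 150766 CPM in WT livers. Most of that sum was Alb, so it says little of the others. By the main edgeR test 0 of them passed, with 1, Ass1, lower at an unadjusted p under 0.05. Ass1 passed in 5 of the 16 other settings, among them DESeq2 (adjusted p = 0.00661), edgeR without a filter (0.00169) and edgeR with the replicate block (0.0234). Ass1 was lower in every SCADD liver than in every WT liver (log2 fold change -0.72, SE 0.20, edgeR adjusted p = 0.0590). Cyp2e1 was higher in every SCADD liver (0.39, SE 0.18, edgeR adjusted p = 0.242). Of the 6 enterocyte markers, which bear on the monoacylglycerol route, Sis, Lct and Alpi had 0 reads in all 6 libraries. Vil1 had at most 0.0408 CPM in SCADD livers and 0.217 CPM in WT livers. Fabp2 and Apoa4, which hepatocytes also express, made up nearly all of the list, which summed to 1190 to 3330 CPM in SCADD livers, against 1055 to 2080 CPM in WT livers. Fabp2, a fatty acid binding protein, had 524, 311 and 801 CPM in SCADD livers, against 242, 242 and 306 CPM in WT livers. Every SCADD liver was above every WT liver, but SCADD replicate 2 at 311 CPM lay close to WT replicate 3 at 306 CPM. The log2 fold change of 1.05 did not pass by the main edgeR test (SE 0.30, adjusted p = 0.0641). It passed by DESeq2 (adjusted p = 0.00326), and by edgeR without a filter (6.36e-07), with the replicate block (0.0125) and without SCADD replicate 2 (0.00245). Adipocyte markers summed to at most 1.10 CPM in SCADD livers and 8.39 CPM in WT livers. The part of other cells in the levels of the enzymes was not tested.

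Kupffer cell markers summed to 142 to 258 CPM in SCADD livers and 183 to 254 CPM in WT livers, and stellate cell markers to 248 to 495 CPM in SCADD livers and 317 to 443 CPM in WT livers. The 6 markers of sinusoidal endothelium summed to 104 to 165 CPM in SCADD livers, against 173 to 181 CPM in WT livers. Most of that sum was Clec4g, with 53.8, 65.6 and 104 CPM in SCADD livers, against 117, 112 and 115 CPM in WT livers, which did not pass (edgeR adjusted p = 0.110). Of the 6, Lyve1 alone was called, and it was lower (-1.40 on the log2 scale, SE 0.29, edgeR adjusted p = 0.0152). Over all tested genes 2.80% were called lower. In 4 of the 6 endothelial markers every SCADD library lay below every WT library, as in 13.1% of all tested genes, and in 0 above. By edgeR 3 of the 6 were lower at an unadjusted p under 0.05, and 2 were called lower without a filter or with the replicate block. Lyve1 did not pass without WT replicate 2 (adjusted p = 0.0703) or WT replicate 3 (0.0625). Cholangiocyte markers summed to 28.9 to 41.1 CPM in SCADD livers, against 44.7 to 52.1 CPM in WT livers, and lymphocyte and neutrophil markers to 3.07 to 8.93 CPM in SCADD livers, against 2.33 to 6.29 CPM in WT livers. Of 6 pancreas markers 5 had 0 reads in all libraries.

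For each of the 4 enzymes that rose, the other genes whose log2 CPM followed it most closely over the 6 libraries, up to 3, were found by Pearson's r among 10434 genes. Those were protein-coding genes other than the enzymes that averaged 1 CPM or more, without predicted, clone, pseudogene or Riken names. The r values describe 6 libraries in 2 groups, so any gene that differs between the groups tends to score high. Mogat1 was followed most closely by Etnk1 (r = 0.999), Nab1 (0.997) and Spast (0.997), and 224 genes exceeded 0.95. Gpam was followed by Proca1 (0.998) and Pebp1 (0.991), with 128 genes above 0.95. For Lpin2 the closest were Aebp2 (0.990), Rexo4 (0.990) and Baiap2l1 (0.989), with 69 above 0.95. For Dgat2 they were Rap2a (0.997), Slc41a2 (0.994) and Lcn2 (0.994), with 178 above 0.95.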

How the data were processed

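RNA sequencing of 6 mouse livers was read from the processed tables. Reads were aligned with STAR 2.7.6a and quantified with RSEM 1.3.3 against GRCm38, as listed in the submitters' processing notes, and the release of the annotation is not given in the sources used here. The authors deposited STAR read counts per gene, not normalised, and RSEM tables, from which the deposited expected counts, the deposited TPM values (length-corrected transcript shares that sum alike in every library) and the weighted transcript lengths were used. Column 4 of the counts was used, since it held 96.8% to 97.3% of stranded reads. Summary rows were left out, and unmapped reads made up 13.6% to 36.6% of reads. Gene names and coordinates came from GENCODE M21 (55227 of 55487 IDs matched).

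Genes were kept by filterByExpr (minimum count 10), then scaled by TMM. The quasi-likelihood test of edgeR 4.0.16 (robust, R 4.3.3) compared the groups over all 6 libraries with no covariate. Benjamini-Hochberg adjustment ran over all 13498 genes in the fit, with a threshold of 0.05. SE is the log2 fold change over the square root of F, an approximation. The test was also run on simulated counts with the same dispersion for every gene, which does not show its error rate in these data. Replicates of a group differed beyond sampling noise (chi-square per degree of freedom 36.5 to 135). Shares and lengths were compared by exact permutation tests (scipy 1.17.1). The other settings were scaling by RLE or upper quartile, no filter, 1 CPM in 3 libraries, DESeq2 1.42.0, limma-voom (limma 3.58.1), no robust estimation, RSEM expected counts rounded to whole numbers, unstranded counts, a replicate block and leaving out each library. The enzymes and the gene lists were chosen with earlier results of these data known. All 10 enzymes are named, and from each other list the called genes, up to 6, or up to 2 with the smallest p where none was called. For each called enzyme the 3 genes most like it in log2 CPM were taken. Not every gene so taken is described, and 1 of them is not reported here. Genes outside that rule are named too, among them Acads, Srebf1, Fkbp5, Alb, Clec4g, Sis, Lct, Alpi, Vil1 and the genes that overlap the enzymes.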

Additional observations from a re-analysis of the deposited data

How the results depend on the processing

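The tests of the 9 enzymes tested were recomputed under 16 other settings, and that of Adipoq under 14. Without each library in turn, the difference in the Lpin2 share (14.4 percentage points) ran from 11.0 to 19.8 and that in the Dgat2 share (8.53) from 7.32 to 9.85. The number of tested enzymes called higher (4) was 3 to 5, at 3 without WT replicate 1, 2 or 3 or SCADD replicate 1, and 5 without SCADD replicate 3. The number called lower (0) was 0 to 1 when a library was left out, the 1 being Lpin1 without WT replicate 1. Call and direction of Mogat1, Lpin2, Dgat2, Lpin3 and Dgat1, that is 5 of the 9, held in every setting, as did those of 5 of the 13 other named genes that passed. Log2 fold changes whose sign turned when a library was left out were those of Agpat2 (-0.0114 to 0.161, with -0.0114 without WT replicate 3 and -0.00271 without SCADD replicate 1), Adipoq (-2.39 to 0.638, with 0.638 without WT replicate 1) and Apoa4 (-0.140 to 0.649, with -0.140 without SCADD replicate 1). Over all genes, the counts of 569 higher and 378 lower were 950 and 752 without a filter, 240 and 155 without WT replicate 2, 283 and 177 without WT replicate 3, 324 and 193 without SCADD replicate 1, and 909 and 681 without SCADD replicate 3. The cause was not tested. Same-numbered replicates of the groups correlated at 0.0606, 0.0372 and 0.107 in their deviations from the group means, and differently numbered ones at -0.127 to 0.0612. SCADD replicates 2 and 3 correlated best with their own number, and SCADD replicate 1 with WT replicate 2 (0.0612 against 0.0606). With 2 of the 3 values under 0.1, the replicates were treated as unpaired, although this check cannot settle whether the mice were matched. With the replicate block, 668 genes were higher and 480 lower, and 5 of the enzymes were called higher and 0 lower, Gpat4 being the one added (adjusted p = 0.0313). Depth limits Mogat2 and the WT level of Mogat1, which rest on at most 16 reads a library.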

Other observations

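Genes annotated on the opposite strand overlap several of the enzymes, and their stranded counts were read. BC035947 shares 200 exonic bases with Mogat1 and had 2, 0 and 4 reads in SCADD livers, against 2, 0 and 0 reads in WT livers. Egfl7, an endothelial gene that shares 64 exonic bases with Agpat2, had 239, 195 and 156 reads in SCADD livers, against 358, 251 and 344 reads in WT livers (log2 fold change -0.36, SE 0.14, edgeR adjusted p = 0.148). Gm45012, which shares 55 exonic bases with Mogat2, had 0 reads in all 6 libraries.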
